A study of Mus musculus with 12 samples.

Results

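The transcripts of 9 genes around the oxidative stress regulator NRF2 were followed over 1 day in the liver of mice without the cryptochromes CRY1 and CRY2. They are Nfe2l2, Keap1, Gclc, Gclm, Txnrd1, Srxn1, Nqo1, Hmox1 and G6pdx, chosen by symbol from a table of 22618 genes, and each matched 1 row. All 9 passed the filter on low counts, which left 17142 genes for testing. The libraries came from liver of male Cry1/2 DKO mice of the C57BL/6j strain, aged 12 to 16 weeks, raised with a conventional gut flora and fed at night. Sampling ran in steps of 4 h of zeitgeber time (ZT), at ZT2, ZT6, ZT10, ZT14, ZT18 and ZT22, and each time point has 2 libraries, 12 in total. Night here means ZT14, ZT18 and ZT22, and day means ZT2, ZT6 and ZT10, with the dark phase taken to start at ZT12 by convention. Every animal carried the double knockout and wild-type libraries were not analysed here, so the comparisons are between times of day within the mutant. The labels do not say how the alleles were made, nor whether each library is a different animal. The p-values therefore rest on the spread among these libraries, which may be technical. For night against day, the p-values, SE and intervals rest on the spread within time points. The spread among the night or among the day time points does not enter them.

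NRF2, encoded by Nfe2l2, is a bZIP transcription factor that drives genes of antioxidant defence. KEAP1 holds NRF2 in the cytoplasm and delivers it to a CUL3 ubiquitin ligase for degradation, and electrophiles or oxidants that modify KEAP1 let NRF2 build up in the nucleus. There it pairs with small MAF proteins on antioxidant response elements near its targets. In liver these targets supply glutathione (Gclc, Gclm), reduce thioredoxin and peroxiredoxin (Txnrd1, Srxn1), detoxify quinones (Nqo1), break down heme (Hmox1) and feed the pathway that makes NADPH (G6pdx). Because NRF2 is controlled largely at the protein level, the level of its own mRNA is not a measure of its activity.

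The antioxidant response element is what these target genes are known to share, so stretches of their promoters that hold its core are shown. Promoter windows of 300 bases, 250 before and 50 after an annotated start, were taken from RefSeq on GRCm38.p6 and matched 7 of the 9 genes in 9 windows, 3 of them for Txnrd1; Gclc and Hmox1 were not matched. Both strands were searched for the core TGACNNNGC and for the related letters TGAGTCAGC; the letters of these motifs differ at the fourth base, so no match is counted under both. The windows of 5 genes held TGACNNNGC and that of 1 gene, Srxn1, held TGAGTCAGC, while those of Keap1 and Nqo1 held neither. Of all 32851 windows 12.4% and 0.414% held these motifs. These shares count single windows and not genes, so they do not compare directly with the counts of genes. Each line below reads 5′ to 3′ on the strand that holds the motif, with the motif in capitals.
Srxn1: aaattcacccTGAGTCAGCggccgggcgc
Nfe2l2: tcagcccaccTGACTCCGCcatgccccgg
Gclm: tcgtgagagtTGACGGTGCgcccgggagc
Txnrd1: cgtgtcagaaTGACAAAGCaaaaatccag
G6pdx: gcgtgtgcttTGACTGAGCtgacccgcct
The Srxn1 stretch lies at chr2:152105469-152105497 on the plus strand and the Nfe2l2 stretch at chr2:75704885-75704913 on the minus strand, both in the direction of the gene. The Gclm stretch at chr3:122245413-122245441 (minus strand), the Txnrd1 stretch at chr10:82859104-82859132 (minus strand) and the G6pdx stretch at chrX:74428919-74428947 (plus strand) run against the gene. The Txnrd1 and G6pdx stretches lie inside the annotated gene, before an annotated start that is not its first. Srxn1 also held a match to TGACNNNGC downstream of its start, which is not printed. A match is only a run of letters in the window and says nothing about binding. Bases outside the windows were not searched, so a window without a match does not show that the gene lacks the element.

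Libraries held 34715506 to 46074052 exon counts. The unit of level is CPM, the count of a gene as a share of its library, scaled with TMM factors for composition. Both targeted genes still had counts in all 12 libraries, at 5.71 to 13.6 CPM for Cry1 and 12.4 to 22.8 CPM for Cry2. Counts summed over a gene cannot tell whether a deleted part was read, so they do not check the genotype. The 6 hepatocyte markers were all present (Alb averaged 66637 CPM), and 8 Kupffer cell markers summed to 255 to 470 CPM per library. The difference between the 2 libraries of ZT02 went together over genes with that between the 2 libraries of ZT06 (r = 0.50), and calls of the genes below were also computed without 1 library of each of these times.

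Of the 9 genes, 0 passed the test for a 24 h rhythm (edgeR quasi-likelihood, Benjamini-Hochberg adjusted p under 0.05; 2 at an unadjusted p under 0.05, and 1, Nqo1, with DESeq2), where 12% of all tested genes passed and 31.5% did unadjusted. None passed the test for any difference among the 6 time points (2 unadjusted; Gclc and Nqo1 with DESeq2), where 4.82% of all genes passed and 24.8% did unadjusted. These shares are those of edgeR. With DESeq2, 3378 of all 17142 genes passed the 24 h test and 2524 the test over 6 time points. Between night and day 1 of the 9 passed, Gclc, against 9.7% of all genes, and 3 did at an unadjusted p under 0.05, as did 26.6% of all genes. Their fitted peak-to-trough range had a median of 1.22-fold, against 1.31-fold over all tested genes and 1.23-fold over genes of at least 5 CPM, and their coefficient of variation over the 12 libraries a median of 14.3%, against 18.5% and 12.9%. The fitted ranges ran from 1.08-fold for Keap1 to 1.81-fold for Nqo1. The mean was higher at night in 5 of them and lower in 4. In 0 of the 9 did the 6 night and 6 day libraries separate, as they did with night above for 1.6% and night below for 2.1% of all genes.

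**Figure D1:**
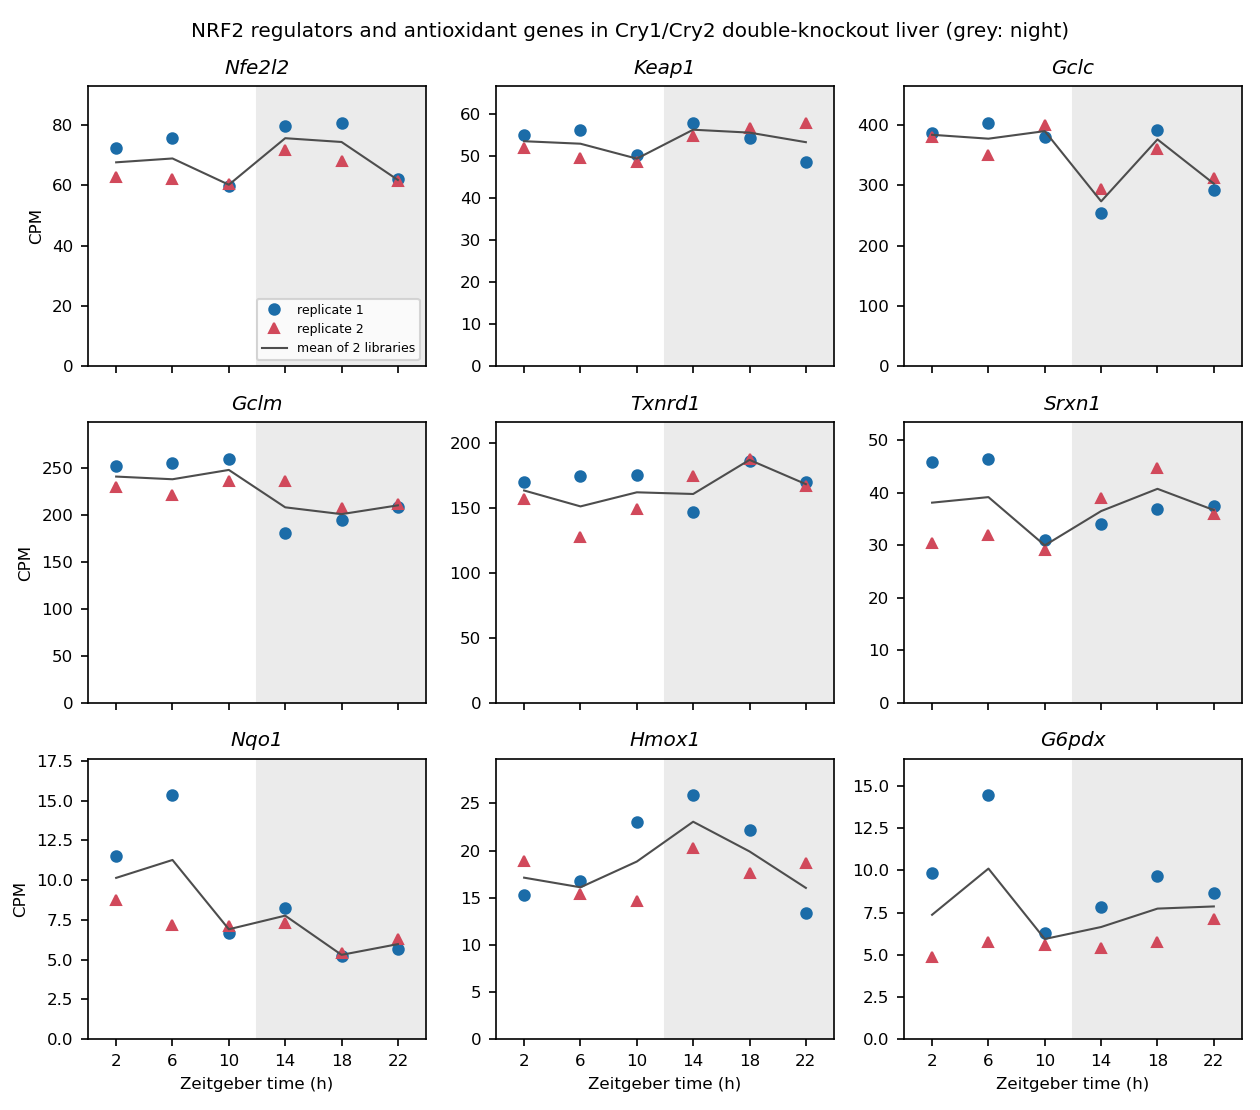
Level of each of the 9 genes in CPM (vertical axes, starting at 0) against zeitgeber time in hours, with 1 point per library, circles for replicate 1 and triangles for replicate 2, and a line through the mean of the 2 libraries of each time point. Gclc dips at ZT14 and ZT22, and the circles of Nqo1 and G6pdx at ZT06 (15.3 and 14.5 CPM) stand above all other points of those genes.

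Levels between genes were compared per kb of annotated exon. The lengths join all exons of a gene in GENCODE M21, and the gene models behind the counts are not given. Levels and ratios between genes therefore depend on these lengths, which the SD does not cover. Gclc had the highest level of the 9, at 93.0 ± 13.3 CPM per kb (SD, n = 12), followed by Gclm at 35.6 ± 3.94, and the libraries of these genes overlapped neither with each other nor with any other gene of the 9. Txnrd1 (23.3 ± 2.45 CPM per kb) and Nfe2l2 (17.9 ± 2.02) came next and overlapped, and the lowest Nfe2l2 library lay below the highest of Srxn1. Srxn1 (13.1 ± 2.16), Keap1 (11.4 ± 0.753) and Hmox1 (10.6 ± 2.16 CPM per kb) overlapped in range and their order is not resolved. Nqo1 (5.08 ± 1.87) and G6pdx (2.47 ± 0.89 CPM per kb) were lowest; their ranges overlapped, and that of Nqo1 reached into that of Hmox1.

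Neither regulator passed any of the tests. Nfe2l2 (ENSMUSG00000015839, chromosome 2, 75675513 to 75704641, minus strand, GRCm38) was at 72.5 and 62.8 CPM at ZT2, 75.7 and 62.2 at ZT6, 59.8 and 60.6 at ZT10, 79.6 and 71.7 at ZT14, 80.8 and 68.0 at ZT18, then 62.1 and 61.6 at ZT22 (replicates 1 and 2). Its lowest values were at ZT10 and ZT22 and its highest in the replicate 1 libraries of ZT14 and ZT18, so night and day overlapped. The mean was 70.6 ± 8.34 CPM at night and 65.6 ± 6.73 by day (SD, n = 6 each), a log2 difference of 0.10 with a 95% interval of -0.06 to 0.27 (edgeR adjusted p = 0.419). Keap1 (ENSMUSG00000003308, chromosome 9, 21229730 to 21239361, minus strand), the repressor and sensor, had the smallest spread of the 9, with a coefficient of variation of 6.61% over the 12 libraries. It ran from 48.6 to 57.9 CPM at night (median 55.7) and from 48.6 to 56.2 CPM by day (median 51.0), ranges that all but coincide. The log2 difference of night minus day was 0.08 with a 95% interval of -0.06 to 0.23 (edgeR adjusted p = 0.45), and the fitted 24 h range was 1.08-fold (approximate upper limit 1.22). The level of Nfe2l2 per kb was 1.58 ± 0.133 times that of Keap1 (SD, n = 12), with the lowest ratio, 1.32, in ZT22 replicate 2 and the highest, 1.84, in ZT18 replicate 1.

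Glutathione synthesis begins with glutamate-cysteine ligase, whose catalytic subunit is encoded by Gclc and whose modifier subunit, which eases feedback inhibition, by Gclm. Gclc (ENSMUSG00000032350, chromosome 9, 77754535 to 77794485, plus strand) was at 386 and 380 CPM at ZT2, 403 and 350 at ZT6, 380 and 399 at ZT10, 253 and 293 at ZT14, 391 and 360 at ZT18, then 292 and 312 at ZT22 (replicates 1 and 2). Both libraries of ZT14 and both of ZT22 lay below every day library, while both libraries of ZT18 lay inside the day range, so the lower night mean came from the first and last night time points. The mean was 317 ± 50.2 CPM at night and 383 ± 18.9 CPM by day (SD, n = 6 each), and Gclc fell by 0.29 ± 0.07 on the log2 scale (SE; 95% interval -0.44 to -0.13; edgeR adjusted p = 0.0291, range 0.00365 to 0.101 over the alternatives tried). Leaving out a single library ended the call in 9 of 12 cases, and it held without ZT06 replicate 2, without ZT10 replicate 1 and without ZT14 replicate 2; the log2 difference stayed between -0.32 and -0.25. It was also lost without ZT02 replicate 2 and ZT06 replicate 1 together (log2 difference -0.25, adjusted p = 0.101). The 24 h cosine did not pass (range 1.23-fold, adjusted p = 0.405), nor did the test over 6 time points (adjusted p = 0.0732 with edgeR and 0.00151 with DESeq2).

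Marker levels were set beside these values. The summed level of the 6 hepatocyte markers was 76986 to 85902 CPM at night and 85114 to 111309 CPM by day, and that of 6 pericentral hepatocyte markers 5745 to 7326 CPM at night and 6458 to 9193 CPM by day; the ranges overlap and were not tested. Alb makes up most of the hepatocyte sum, and Cyp2e1, which is in both lists, most of the pericentral sum (mean 5206 CPM). With each hepatocyte marker weighted equally on the log2 scale, around its mean over the libraries, the level ran from -0.13 to 0.07 at night and from -0.22 to 0.19 by day. Weighted in the same way, the pericentral level ran from -0.10 to 0.03 at night and from -0.16 to 0.23 by day. The part of these markers in the Gclc difference was not tested. At ZT14, where Gclc was lowest, the heat shock factor targets summed to 3350 and 3017 CPM, above all other libraries (at most 1899 CPM), and pancreatic acinar markers to 9.77 CPM in replicate 1 and 35.8 CPM in replicate 2. Of the acinar genes, Cpb1, Cpa1, Cela3b, Prss2, Pnlip and Ctrb1 were at 0 in at least 1 library. The part of the heat shock and acinar transcripts in the Gclc level at ZT14 was not tested. In whole liver, fewer cells of a type and less RNA per cell cannot be told apart.

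Gclm (ENSMUSG00000028124, chromosome 3, 122245557 to 122270732, plus strand) was at 252 and 229 CPM at ZT2, 255 and 221 at ZT6, 259 and 236 at ZT10, 180 and 235 at ZT14, 194 and 207 at ZT18, then 208 and 211 at ZT22. All but 1 of its night libraries lay below every day library, the exception being ZT14 replicate 2. It averaged 206 ± 18.5 CPM at night and 242 ± 15.6 CPM by day (SD, n = 6 each), a log2 difference of -0.23 (95% interval -0.41 to -0.05) that did not pass over all genes (edgeR adjusted p = 0.0955) and did pass without ZT14 replicate 2 (adjusted p = 0.0306). Per kb of exon, Gclc stood at 2.62 ± 0.33 times the level of Gclm (SD, n = 12). The ratio was 2.56 and 2.77 at ZT2, 2.65 and 2.65 at ZT6, 2.45 and 2.83 at ZT10, 2.35 and 2.08 at ZT14, 3.36 and 2.91 at ZT18, then 2.35 and 2.47 at ZT22. It was thus highest in both ZT18 libraries, where Gclc stood in its day range and Gclm below its own, and lowest in ZT14 replicate 2; this is a description with no test. Gclm shares 244 exon bases with Gm6061 on the same strand and 296 with Gm17494 on the other, which reached 7.12 and 1.81 CPM, so reads of these stretches are uncertain.

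**Figure D2:**
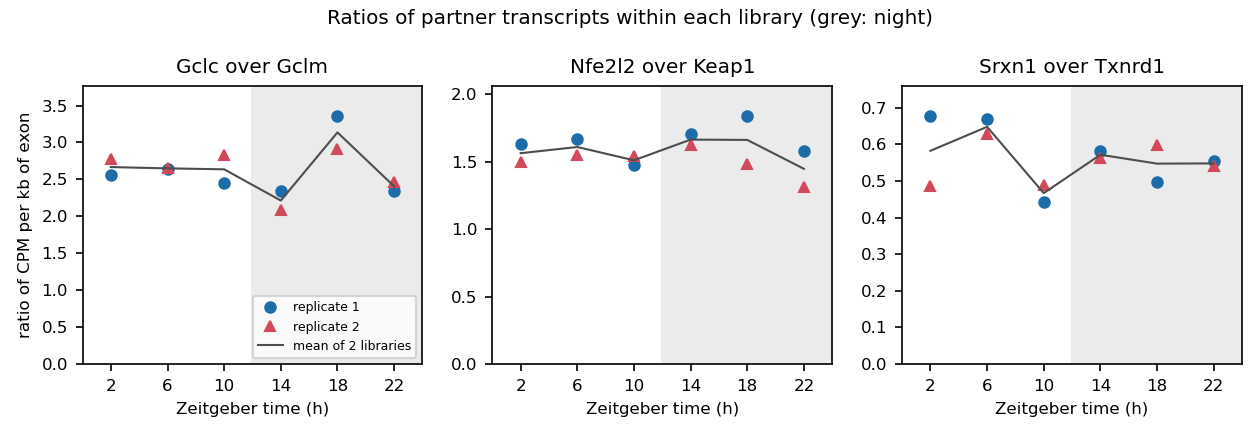
Ratio of levels per kb of exon within each library (vertical axes, from 0) for Gclc over Gclm, Nfe2l2 over Keap1 and Srxn1 over Txnrd1 against zeitgeber time in hours, 1 point per library and a line through the mean of 2. The Gclc over Gclm ratio is highest at ZT18 (3.36 and 2.91); the Srxn1 over Txnrd1 ratio is highest in the replicate 1 libraries of ZT02 and ZT06 (0.678 and 0.669).

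In the thioredoxin branch, Txnrd1 encodes the cytosolic thioredoxin reductase and Srxn1 the sulfiredoxin that repairs over-oxidised peroxiredoxins. Txnrd1 (ENSMUSG00000020250, chromosome 10, 82833951 to 82897712, plus strand) was at 170 and 157 CPM at ZT2, 174 and 128 at ZT6, 175 and 149 at ZT10, 147 and 174 at ZT14, 186 and 188 at ZT18, then 170 and 166 at ZT22. Its highest pair was at ZT18 and its lowest single library ZT06 replicate 2, with overlap between night and day (log2 difference of night minus day 0.11, 95% interval -0.08 to 0.31, edgeR adjusted p = 0.453). Srxn1 (ENSMUSG00000032802, chromosome 2, 152105516 to 152111376, plus strand) was at 45.8 and 30.4 CPM at ZT2, 46.4 and 31.9 at ZT6, 30.9 and 29.0 at ZT10, 34.0 and 39.0 at ZT14, 36.8 and 44.6 at ZT18, then 37.5 and 35.9 at ZT22. Its highest libraries were the replicate 1 libraries of ZT06 and ZT02, whose partners stood near the bottom of the range. Night and day did not differ detectably (log2 difference 0.10, 95% interval -0.17 to 0.36, adjusted p = 0.656).

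Nqo1 (ENSMUSG00000003849, chromosome 8, 107388225 to 107403206, minus strand), a quinone reductase and a standard reporter of NRF2 activity, had the widest fitted range of the 9. It was at 11.5 and 8.77 CPM at ZT2, 15.3 and 7.20 at ZT6, 6.69 and 7.12 at ZT10, 8.24 and 7.29 at ZT14, 5.20 and 5.39 at ZT18, then 5.66 and 6.29 at ZT22 (replicates 1 and 2). ZT18 and ZT22 lay below every day library, ZT14 lay inside the day range, and the highest libraries were ZT06 replicate 1 and ZT02 replicate 1. The night mean was 6.34 ± 1.20 CPM and the day mean 9.44 ± 3.39 CPM (SD, n = 6 each), a log2 difference of -0.56 (95% interval -0.92 to -0.20; edgeR adjusted p = 0.0532; range 0.00673 to 0.134 over the alternatives). Without ZT06 replicate 1 the log2 difference was -0.35 (adjusted p = 0.0662). Nqo1 passed the night and day test with DESeq2, with no filter on low counts, without ZT06 replicate 2, and under both settings that left out a ZT02 and a ZT06 library together (edgeR adjusted p = 0.0459 without ZT02 replicate 2 and ZT06 replicate 1, and 0.00804 without ZT02 replicate 1 and ZT06 replicate 2). The fitted 24 h range was 1.81-fold (95% interval 1.14 to 2.87) with a peak at ZT 5.58 ± 1.32 h (SE), which did not pass over all genes (adjusted p = 0.0646); fitted alone, replicates 1 and 2 peaked at ZT 5.59 and 5.54. It passed with DESeq2 (adjusted p = 0.0144 to 0.308 over all alternatives) and without ZT06 replicate 2 or ZT10 replicate 1.

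Hmox1 (ENSMUSG00000005413, chromosome 8, 75093621 to 75100589, plus strand) encodes heme oxygenase 1, which is induced by oxidants, heme and heat and is abundant in Kupffer cells. It was at 15.3 and 18.9 CPM at ZT2, 16.8 and 15.4 at ZT6, 23.0 and 14.6 at ZT10, 25.9 and 20.3 at ZT14, 22.2 and 17.6 at ZT18, then 13.4 and 18.7 at ZT22. Its highest library was ZT14 replicate 1 and its lowest ZT22 replicate 1, and the widest gap between partners was at ZT10. The 24 h fit had a 1.37-fold range (approximate upper limit 1.91) and a peak at ZT 14.4 ± 1.76 h (SE), and did not pass (edgeR adjusted p = 0.184). Fitted alone, replicates 1 and 2 peaked apart, at ZT 13.1 and 19.9. The night and day difference did not pass either (log2 difference 0.17, 95% interval -0.13 to 0.47, adjusted p = 0.464). The heat shock factor targets were highest in the ZT14 libraries, as given above, while the Kupffer markers summed to 370 CPM in ZT14 replicate 1 and 255 CPM in ZT14 replicate 2, within or below the range of 303 to 470 CPM by day; the part of either in the Hmox1 level was not tested.

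G6pdx (ENSMUSG00000031400, X chromosome, 74409483 to 74429194, minus strand) encodes glucose-6-phosphate dehydrogenase, the entry to the pentose phosphate pathway and a source of NADPH for both glutathione reduction and fatty acid synthesis. It was at 9.88 and 4.87 CPM at ZT2, 14.5 and 5.76 at ZT6, 6.29 and 5.58 at ZT10, 7.86 and 5.43 at ZT14, 9.69 and 5.78 at ZT18, then 8.64 and 7.09 at ZT22 (replicates 1 and 2). The replicate 1 library was the higher one at all 6 time points, a pattern noticed in the values and shared by 1.06% of all tested genes, while 1.89% had the replicate 2 library higher at all 6; the labels do not say what libraries with the same number have in common. Night and day did not differ detectably, at 7.42 ± 1.65 CPM and 7.81 ± 3.70 CPM (SD, n = 6 each; log2 difference -0.05, 95% interval -0.59 to 0.50, edgeR adjusted p = 0.928), and the sign turned without ZT06 replicate 1 (0.22), ZT02 replicate 1 (0.16), ZT18 replicate 2 (0.06) or ZT14 replicate 2 (0.03). G6pdx shares 418 exon bases with Ikbkg on the opposite strand, which was at 67.3 to 143 CPM, and the strand setting of the counting was not given, so some G6pdx reads are uncertain. The retrogene G6pd2 had at most 3 counts per library.

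**Figure D3:**
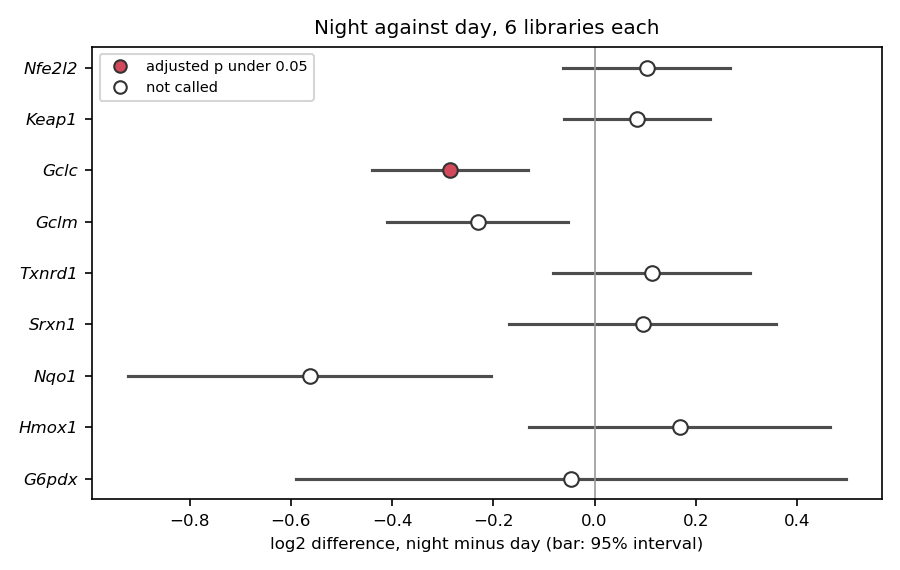
Log2 difference of night minus day for each of the 9 genes (points, horizontal axis) with its 95% interval (bars), from 6 night and 6 day libraries; a filled point has an edgeR adjusted p under 0.05. The intervals rest on the spread within time points. Gclc at -0.29 is the 1 filled point, the interval of Nqo1 runs from -0.92 to -0.20 and that of G6pdx is the widest, from -0.59 to 0.50.

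The 9 genes were also compared with each other over the libraries. Among their 36 pairs, Pearson's r of log2 CPM over the 12 libraries had a median of 0.24 and ranged from -0.35 (Nfe2l2 with Gclm) to 0.65 (Nfe2l2 with Keap1), and 8 pairs were above 0.5, among them Gclc with Gclm (0.60) and Srxn1 with G6pdx (0.63). ZT06 replicate 1 was the highest library for 4 of the 9 genes, Gclc, Srxn1, Nqo1 and G6pdx, and no other library was highest for more than 1. These values share library composition and time of day and are given as a description with no p. The genes most like each member in profile were sought among the 9127 other named genes of at least 5 CPM. For Nfe2l2 the closest was Acaca (r = 0.87), for Keap1 Txn2 (0.96), for Gclc Elf1 (0.90) and for Gclm Fam174a (0.95). For Txnrd1 it was Psmc2 (0.95), for Srxn1 Fam82a2 (0.94), for Hmox1 Zfhx2 (0.90) and for G6pdx Atp5h (0.85), followed by Acly (0.84). For Nqo1 it was Ugt1a10 (r = 0.93) and then Ugt1a9 (0.93), which share exons with each other, so their counts are not separate. With 12 libraries and this many candidates, the highest r of a search is large by construction.

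Of the wider antioxidant system, 70 genes in 7 lists, 69 were tested; Slc7a11, the cystine transporter gene, had at most 11 counts per library. None of the 69 was called higher and 8 were called lower at night (11.6%), against 4.8% and 4.89% of all tested genes, and their median log2 difference was -0.09, against 0.01 over all genes. Apart from Gclc, the genes that fell were Nqo2, Abcc2, Cul3, Maff, Mafk, Txnrd2 and Fech; all but Nqo2 are named here because they were called, after their values were seen. The count of 8 was 0 without ZT14 replicate 1, without ZT18 replicate 1 and without ZT18 replicate 2, ran from 1 to 10 without any other single library, and was 14 with DESeq2. It was 5 with library totals alone, where Maff, Fech and Txnrd2 were not called and 1 gene was called higher. Without ZT02 replicate 2 and ZT06 replicate 1 together 2 genes were called lower, Nqo1 and Nqo2: Nqo2 kept its call (adjusted p = 0.0284), and Abcc2 (0.0518), Mafk (0.0705), Cul3 (0.0897), Txnrd2 (0.14), Maff (0.142) and Fech (0.157) lost theirs. Each of the 7 calls other than that of Gclc was lost in 4 to 10 of the 12 fits without 1 library. One of the 69, Nqo2, passed the 24 h test with edgeR, where 12% of all genes did. At an unadjusted p under 0.05, 15 of the 69 passed it, against 31.5% of all genes. Over 6 time points 0 of the 69 passed with edgeR, against 4.82% of all genes. With DESeq2 the counts were 10 in the 24 h test and 12 over 6 time points. Of all 17142 genes DESeq2 called 3378 and 2524 in these tests, and 1056 lower at night.

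In the list of 12 NRF2 regulators, which holds Nfe2l2 and Keap1, 3 genes were called lower at night (25%) and none higher. Over all tested genes 4.89% were called lower and 4.8% higher. When 1 library was left out, the call of Cul3 was lost in 8 of 12 fits, that of Mafk in 8 and that of Maff in 10. Cul3, the scaffold of the ligase that degrades NRF2, ran from 63.6 to 76.8 CPM at night and from 77.1 to 92.1 CPM by day, ranges that do not overlap (as for 2.1% of all genes in this direction; log2 difference -0.28, edgeR adjusted p = 0.0262). Mafk, which encodes a small MAF partner of NRF2, was at 11.7 ± 1.10 CPM at night and 14.9 ± 2.11 CPM by day (SD, n = 6 each; adjusted p = 0.025). Maff, another small MAF gene, was at 4.50 ± 0.389 CPM at night and 8.14 ± 4.69 CPM by day (adjusted p = 0.0461), with its 2 highest libraries at ZT02 replicate 2 (16.5 CPM) and ZT10 replicate 1 (10.6 CPM). Sqstm1, which encodes the KEAP1-binding autophagy receptor p62, was at 320 ± 32.3 and 342 ± 52.8 CPM (adjusted p = 0.592), and Nfe2l1, which encodes a relative of NRF2, at 116 ± 4.47 and 125 ± 12.6 CPM (adjusted p = 0.435), both night first and not called.

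In quinone, aldehyde and carbonyl detoxification 2 of 16 genes were called lower at night (12.5%) and none higher. Over all tested genes the shares were 4.89% and 4.8%. When 1 library was left out, the call of Nqo2 was lost in 5 of 12 fits and that of Abcc2 in 4. Nqo2, a relative of Nqo1 that uses dihydronicotinamide riboside, was at 93.3 ± 12.7 CPM at night and 132 ± 31.8 CPM by day (SD, n = 6 each; log2 difference -0.49, edgeR adjusted p = 0.0237). Its fitted 24 h range was 1.80-fold (95% interval 1.40 to 2.32) with a peak at ZT 3.63 ± 0.73 h (SE; adjusted p = 0.00811, range 1.44e-05 to 0.0278 over the alternatives, all past the threshold). By library Nqo2 stood at 159 and 133 CPM at ZT2, 180 and 111 at ZT6, 108 and 99.8 at ZT10, 76.3 and 89.5 at ZT14, 87.3 and 93.0 at ZT18, then 114 and 99.9 at ZT22. Its highest library was ZT06 replicate 1, as for Nqo1. Abcc2, which encodes a canalicular exporter of glutathione conjugates, was at 272 to 351 CPM at night and 369 to 462 CPM by day, again without overlap (log2 difference -0.34, adjusted p = 0.0201). Gsta1 and Gsta2 in this list are near-identical copies of each other and their counts are uncertain.

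In the other lists at most 1 gene each was called, where 4.89% of all tested genes were called lower at night. Of 9 tested glutathione genes Gclc was the only one called, and Gpx1, the main cytosolic glutathione peroxidase gene (1237 ± 26.6 CPM at night, 1306 ± 139 by day; edgeR adjusted p = 0.592), and Oplah, the oxoprolinase gene (165 ± 4.45 and 172 ± 13.5 CPM; adjusted p = 0.649) were not. Of 11 thioredoxin and peroxiredoxin genes 1 fell, Txnrd2, the mitochondrial thioredoxin reductase gene, with 15.1 to 20.1 CPM at night and 20.6 to 23.4 CPM by day (log2 difference -0.27, adjusted p = 0.0412). Prdx1 (530 ± 40.1 CPM at night, 575 ± 104 by day) and Prdx6 (429 ± 13.4 and 472 ± 64.4 CPM) were not called (adjusted p = 0.586 and 0.214). None of 7 NADPH genes was called: Idh1, the cytosolic NADP-dependent isocitrate dehydrogenase gene, averaged 433 ± 54.8 CPM during the night and 466 ± 137 CPM during the day (adjusted p = 0.707), and Tkt, of the pentose phosphate pathway, at 186 ± 14.6 and 170 ± 50.5 CPM (adjusted p = 0.551).

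None of 7 heme and iron genes was called. The ferritin genes Ftl1 (2137 ± 153 CPM at night, 2348 ± 449 by day; edgeR adjusted p = 0.536) and Fth1 (684 ± 51.4 and 728 ± 44.4 CPM; adjusted p = 0.452) did not pass. Of 7 genes of superoxide and peroxide enzymes and other targets 1 fell at night, Fech, which encodes the ferrochelatase of heme synthesis, at 148 ± 11.4 CPM at night and 177 ± 12.2 CPM by day (log2 difference -0.26, adjusted p = 0.0405). Catalase (Cat), which breaks down hydrogen peroxide, was at 2907 ± 251 and 3312 ± 452 CPM (adjusted p = 0.257), and Sod1, a cytosolic superoxide dismutase gene, at 597 ± 22.7 and 598 ± 36.6 CPM (adjusted p = 0.974), night first in each.

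**Figure D4:**
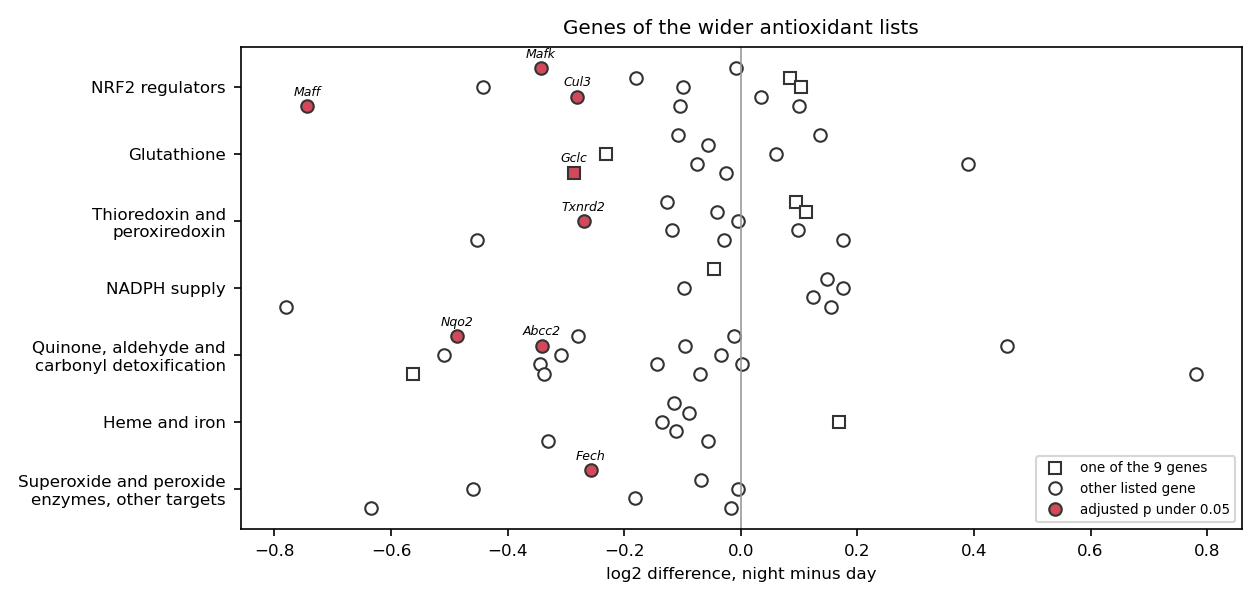
Log2 difference of night minus day (horizontal axis) for the 69 tested genes of the 7 antioxidant lists (rows), squares for the 9 genes described above and circles for the others; vertical scatter within a row has no meaning. Filled symbols have an edgeR adjusted p under 0.05: all 8 lie below 0, and Maff is the farthest of them at -0.74.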

How the data were processed

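Per the labels' protocols, libraries were paired-end and strand-specific, made from total liver RNA after ribosomal RNA removal. The deposited values are raw counts of exon reads for each gene; STAR 2.4.0i and mm10 stand in the submitters' processing notes, whereas gene models, strand setting and counting tool are not given in the sources used here. Identifiers were matched to GENCODE M21 (GRCm38) for positions and exon lengths (22054 of 22618); of the 2 rows named Mafg, the one matched there was used. Counts were tested in R 4.3.3 with edgeR 4.0.16 (TMM, filterByExpr with minimum count 10 and total 15, quasi-likelihood F test) over all 17142 genes: 24 h cosine and sine terms, 6 time-point means, and night minus day. Ranges, peaks and their intervals come from least squares on log2 CPM (prior count 2); an interval's lower end stops at 1-fold. A count of 0 allows at most 0.0864 CPM in the smallest library (3 counts; counting error only). Partner libraries differed by more than counting error (chi-square over its degrees of freedom at least 16.8), so none was merged. Tests were also run on simulated data of independent libraries. Those data lack the difference shared by ZT02 and ZT06, so they do not vouch for the calls made here. Alternatives were RLE factors, totals only, DESeq2 1.42.0, limma-voom (limma 3.58.1), other filters, a replicate block and left-out libraries. The genes, lists and alternatives were chosen with earlier results of these data known. All 9 genes are named; of each list, up to 4 others called in the 24 h test, or else the 2 most abundant; and for each gene the 3 of most similar profile were sought, of which the closest are printed.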

Additional observations from a re-analysis of the deposited data

Results flagged for a closer look

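In 1 of 56 groups of 6 libraries, each the night or the day libraries of a named gene, 1 library stood far from the rest. Fech was at 170.3 CPM in ZT14 replicate 2, while the other night libraries lay between 141 and 148 CPM, a gap of 0.758 of the night range against a 95% critical value of 0.625 (Dixon). Chance alone marks about 1 in 20 such groups. The same library had the highest sum of pancreatic acinar markers, 35.8 CPM, and its part in the Fech level was not tested.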

How the results depend on the processing

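Counts over all genes depended on the tool and the libraries, and those of the 9 genes shifted by 1 or 2. The 24 h count of 2051 genes was 3378 with DESeq2, 1276 without ZT02 replicate 2 and ZT06 replicate 1, 568 without ZT02 replicate 1 and ZT06 replicate 2, and 1201 to 2225 when 1 library was left out; of the 9 genes it called 1 with DESeq2 and 0 to 1 without 1 library. The count over 6 time points, 826, was 2524 with DESeq2 and 174 to 897 without 1 library; of the 9 it called 2 with DESeq2, 1 in either fit without 2 libraries, and 0 to 1 without 1 library. The night and day count of 1662 was 865 and 1107 in those fits without 2 libraries and 611 to 1818 without 1; of the 9 it called 2 with DESeq2, with no low-count filter and without ZT02 replicate 1 and ZT06 replicate 2, and 0 to 2 without 1 library. With DESeq2 the night and day count over all genes was 2069, with 1013 higher and 1056 lower at night. Counts for the 69 genes of the wider lists were recomputed under these settings after seeing the data. The 24 h count of 1 was 2 with totals alone and with limma-voom, 3 with a minimum mean of 1 CPM, 10 with DESeq2, 4 without ZT02 replicate 2 and ZT06 replicate 1, and 1 to 6 without 1 library. The count of 0 over 6 time points was 12 with DESeq2, 1 with no filter, 4 and 9 in the fits without 2 libraries, and 0 to 2 without 1. At night 0 were higher, 1 with totals alone and without ZT02 replicate 2 and ZT06 replicate 1, and 0 to 1 without 1 library; 8 were lower, 5 with totals alone, 14 with DESeq2, 2 without ZT02 replicate 2 and ZT06 replicate 1, and 0 to 10 without 1 library. With library totals alone the split over all genes was 1077 higher and 624 lower at night, against 823 and 839. Fewer samples enter the left-out fits; the cause of the other shifts was not tested. Replicate numbers did not pair the libraries throughout: 5 of 15 pairs of time points had r over 0.1, and r ran from -0.22 to 0.50. Whether they pair some of the libraries is not settled by these values. With a replicate block the counts were 1896, 774 and 1609 over all genes and 0, 0 and 1 of the 9. The calls of Maff and Fech were lost under it. Signs turned for uncalled genes near 0. G6pdx was at 0.0918 without ZT02 replicate 2 and ZT06 replicate 1 and at -0.22 to 0.22 without 1 library. Sod1 was at 0.0271 with totals alone, 0.0057 with a minimum mean of 1 CPM, 0.0076 without ZT02 replicate 2 and ZT06 replicate 1, and -0.0336 to 0.0242 without 1 library. Without 1 library Sqstm1 ran from -0.19 to 0.0080, Prdx1 from -0.23 to 0.0176 and Idh1 from -0.22 to 0.0625. Nqo1 and G6pdx, at 7.89 and 7.61 CPM in the mean of 12 libraries, rest on the fewest reads of the 9 genes.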
